A study of Rattus norvegicus with 4 samples.

Results

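The genes described here encode integrins, collagens, laminins and other proteins of the extracellular matrix, measured in rat NRK-52E cells, an established line of kidney tubule epithelium. Of the 8963 genes that could be named on the array, 31 had a current rat symbol of the families Itga, Itgb, Col, Lama to Lamc, Thbs, Sdc or Gpc, or were Fn1, Agrn, Megf6, Nid1, Sparc, Bgn, Dcn or Hspg2. Of these, 27 had a signal well above background on at least 1 of the 4 arrays and are the members, and 24 were well above background on all 4. Nid1 and Hspg2 were not analysed here. The name rule also takes in Itgb3bp, which encodes a centromere protein that was named for binding an integrin tail and is no integrin.

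The study asked which molecules dying cells release to make their neighbours divide, and here cell death was induced with hydrogen peroxide (H2O2). Confluent cultures received 0, 0.003, 0.006 or 0.009% H2O2 in DMEM for 1 h, were washed, and then stayed for 12 h in DMEM without serum before total RNA was taken. The 0% culture is the control and was also without serum. Each dose was measured on 1 one-colour (Cy3) array, so there were no replicates, each value stands for 1 culture of 1 cell line, and fewer cells of a type and less RNA per cell cannot be told apart in such a lysate. The 4 arrays lay on 1 slide and followed each other by dose, so effects of the place on the slide and of the dose cannot be told apart.

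The extracellular matrix is the protein network around cells. Fibrillar collagens give it tensile strength, while laminins, network collagens and the heparan sulfate proteoglycan agrin build the basement membrane on which a tubule epithelium rests. Integrins are paired alpha and beta chains that span the cell membrane and bind collagens, laminins and fibronectin outside the cell to the actin skeleton inside, and syndecans and glypicans are cell-surface proteoglycans that bind matrix proteins and growth factors through their heparan sulfate chains.

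A relative signal below is the background-subtracted spot signal divided by the 75th percentile of its array, and a difference is the log2 ratio of a relative signal to that of the control array. The 75th percentile itself lay between 121.2 and 180.3, the share of probes well above background was 51.8 to 54.9%, and 0 spots were saturated. The error given after ± is the scanner software's spot error over both arrays, with a median of 0.20 for the members at each dose. It does not cover the spread between cultures, so no p-value was computed for a dose against the control, and a difference of at least 2-fold is only a cut by size. Where 1 of the arrays was not well above background, the difference is a bound and is written "at least". Set against the array's spike-in controls instead of the 75th percentile, values moved by -0.18, -0.54 and -1.17 over the 3 doses, and set against the array median by -0.15, -0.31 and -0.56.

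The letters just before the start of transcription are shown for 6 members, because they include the 4 whose measured differences lay furthest below the control (Itga1, Megf6, Agrn and Col5a1) and the laminin chain and the glypican that lay above it (Lama3 and Gpc3). The sequences are RefSeq promoters of build GRCr8, cut to the 250 bases before the start and given 5′ to 3′ on the gene's strand. Capitals mark every match, on either strand, to GGGCGG (the GC box of Sp and KLF factors), GGAATG (TEAD factors), TGANTCA (AP-1), TGACNNNGC (the antioxidant response element), CACGTG (an E-box) or TATAAA (the TATA box).
Itga1, chr2:48545284-48545533, minus strand: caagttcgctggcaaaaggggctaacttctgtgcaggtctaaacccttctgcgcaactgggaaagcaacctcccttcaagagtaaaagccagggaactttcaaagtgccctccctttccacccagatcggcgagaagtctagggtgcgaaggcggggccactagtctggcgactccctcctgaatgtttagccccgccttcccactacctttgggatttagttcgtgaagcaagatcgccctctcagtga
Megf6, chr5:170020528-170020777, plus strand: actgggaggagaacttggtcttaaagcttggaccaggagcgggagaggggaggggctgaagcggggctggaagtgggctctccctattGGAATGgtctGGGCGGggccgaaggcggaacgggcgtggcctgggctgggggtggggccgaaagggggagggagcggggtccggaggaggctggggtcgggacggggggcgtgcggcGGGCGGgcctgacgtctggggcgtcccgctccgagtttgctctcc
Agrn, chr5:172052826-172053075, minus strand: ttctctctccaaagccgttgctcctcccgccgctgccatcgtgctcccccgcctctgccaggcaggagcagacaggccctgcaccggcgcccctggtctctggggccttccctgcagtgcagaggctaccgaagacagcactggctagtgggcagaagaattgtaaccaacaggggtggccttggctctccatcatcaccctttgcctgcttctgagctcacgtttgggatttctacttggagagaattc
Col5a1, chr3:31606630-31606879, plus strand: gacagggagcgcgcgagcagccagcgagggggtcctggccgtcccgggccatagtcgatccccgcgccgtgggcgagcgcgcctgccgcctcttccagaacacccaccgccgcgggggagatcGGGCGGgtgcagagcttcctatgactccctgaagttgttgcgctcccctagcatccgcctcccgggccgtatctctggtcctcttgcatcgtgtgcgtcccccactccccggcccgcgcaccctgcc
Lama3, chr18:3952517-3952766, plus strand: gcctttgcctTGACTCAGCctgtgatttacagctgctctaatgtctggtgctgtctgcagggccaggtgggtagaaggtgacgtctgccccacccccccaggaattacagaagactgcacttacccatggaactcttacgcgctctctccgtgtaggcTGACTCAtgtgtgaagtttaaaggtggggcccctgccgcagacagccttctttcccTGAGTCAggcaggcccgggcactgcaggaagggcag
Gpc3, chrX:137157599-137157848, minus strand: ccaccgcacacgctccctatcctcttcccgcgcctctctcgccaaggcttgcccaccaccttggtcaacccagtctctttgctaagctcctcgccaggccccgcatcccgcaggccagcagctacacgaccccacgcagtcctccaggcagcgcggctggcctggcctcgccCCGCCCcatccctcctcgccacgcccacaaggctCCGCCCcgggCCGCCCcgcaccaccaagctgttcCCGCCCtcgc
The windows differed in base composition, from 54.4% G and C in Itga1 to 71.6% in Col5a1 and Gpc3, against a median of 51.2% over all 33469 promoters of the table. Lama3 held 3 AP-1 matches, the first of which overlaps an antioxidant response element match. Gpc3 held 4 GC boxes, Megf6 2 GC boxes and 1 TEAD match, and Col5a1 1 GC box, while Itga1 and Agrn held none of the 6 motifs in this window. Over the 18 members with an entry in the table, AP-1 was matched in 1 (6.34% of all promoters), the antioxidant response element in 2 (10.1%), TEAD in 4 (12.1%), the GC box in 10 (30.5%), TATAAA in 1 (12.9%) and the E-box in none (5.59%). A match is a description of letters and was not tested as a binding site.

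At 0.003% H2O2, 12 of 26 members compared were at least 2-fold lower than in the control, among them Itga1, Agrn, Megf6, Fn1 and 5 collagen chains, and Lama3 was at least 2-fold higher. Among all 5673 named genes compared at this dose, 12.0% were at least 2-fold lower and 16.2% at least 2-fold higher. The 12 include Col4a4 as a bound, well above background in the control alone. Where both arrays had to be well above background, 11 of 24 members were lower (12.0% of all named genes). The median difference of the members was -0.88, against 0.02 for all named genes, and 22 of the 26 members lay below 0. At 0.006%, 9 of 26 were at least 2-fold lower (8.18% of all named genes) and 2 higher (15.1%), with a median of -0.67 against -0.03. At 0.009%, 5 of 27 were at least 2-fold lower (5.21%) and 4 higher (14.0%), with a median of -0.48 against 0.06. The count of lower members at the highest dose depended on the scaling. With the authors' value table, 14 of 27 were lower (21.8% of all named genes) and 1 was higher (5.21%). With spike-in scaling, 20 of 27 were lower (58.2%) and 0 were higher (2.69%), and the median was -1.65 against -1.14 for all named genes. The 3 comparisons share the control array.

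**Figure D1:**
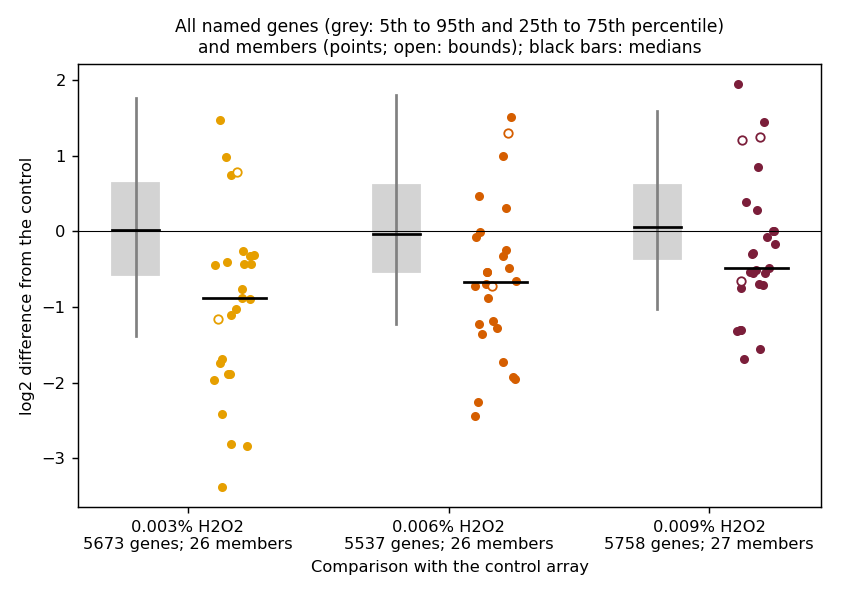
The log2 difference from the control array is plotted at each H2O2 dose for all named genes (grey line, 5th to 95th percentile; grey box, 25th to 75th percentile; black bar, median) and for the members (1 point per gene, open for bounds; black bar, median). The members' medians of -0.88, -0.67 and -0.48 lie below those of all named genes at 0.02, -0.03 and 0.06, and some members lie above 0 at every dose.

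Among the integrins, the alpha chain Itga1, which pairs with the beta 1 chain to bind collagen, had relative signals of 45.2, 4.35, 8.31 and 18.2 from the control to 0.009%. All 3 exposed cultures lay below the control, the lowest dose the furthest. The differences were -3.38 ± 0.20 (10.4-fold lower), -2.44 ± 0.20 (5.44-fold) and -1.31 ± 0.20 (2.49-fold). Itgb1, the shared partner of many alpha chains including Itga1, had relative signals of 10, 7.32, 6.39 and 6.1. Its differences of -0.45 ± 0.06, -0.65 ± 0.06 and -0.71 ± 0.06 stayed under 2-fold and ran the other way over the doses, furthest from the control at 0.009%. With the authors' value table Itgb1 was at -1.27 at 0.009%, and with spike-in scaling at -1.18 and -1.88 at the higher doses, past 2-fold.

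Itgb4, which pairs with the alpha 6 chain to bind laminin and anchors hemidesmosomes to keratin filaments, had relative signals of 7.17, 3.32, 4.45 and 6.41. It was 2.16-fold lower at 0.003% (-1.11 ± 0.20) and within the spot error of the control at 0.009% (-0.16 ± 0.20, but -1.33 with spike-in scaling). Itga7, a laminin-binding alpha chain, had relative signals of 11.6, 9.31, 14.4 and 21. The difference of Itga7 was -0.32 ± 0.20, 0.31 ± 0.20 and 0.85 ± 0.20. Its second probe gave -0.53, 0.03 and 0.23, and with spike-in scaling the values at the higher doses were -0.23 and -0.31, so its direction there depends on the scaling.

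Itgb6, an epithelial chain that with the alpha V chain activates latent TGF-beta, was the integrin furthest above the control. It was not well above background in the control, at a relative signal of 0.0317, and was at 0.0978, 0.14 and 0.135 in the exposed cultures. The bounds were at least 1.72-fold, 2.46-fold and 2.38-fold higher. These are dim signals. With normexp, another background correction, the differences were 0.34, 0.50 and 0.67, and with spike-in scaling the bound at 0.009% was 0.08. Itgb3bp, the centromere protein, was at 6.76, 3.68, 5.68 and 8.23, with differences of -0.88, -0.25 and 0.28, the last turning to -0.28 with the authors' value table and -0.88 with spike-in scaling. Of the 6 genes of this group, 2 were at least 2-fold lower at 0.003% (12.0% of all named genes). At each of the higher doses 1 was lower (8.18 and 5.21%) and 1 higher (15.1 and 14.0%), the latter being the bound of Itgb6. Counts of 1 gene are too small to set apart from these shares.

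**Figure D2:**
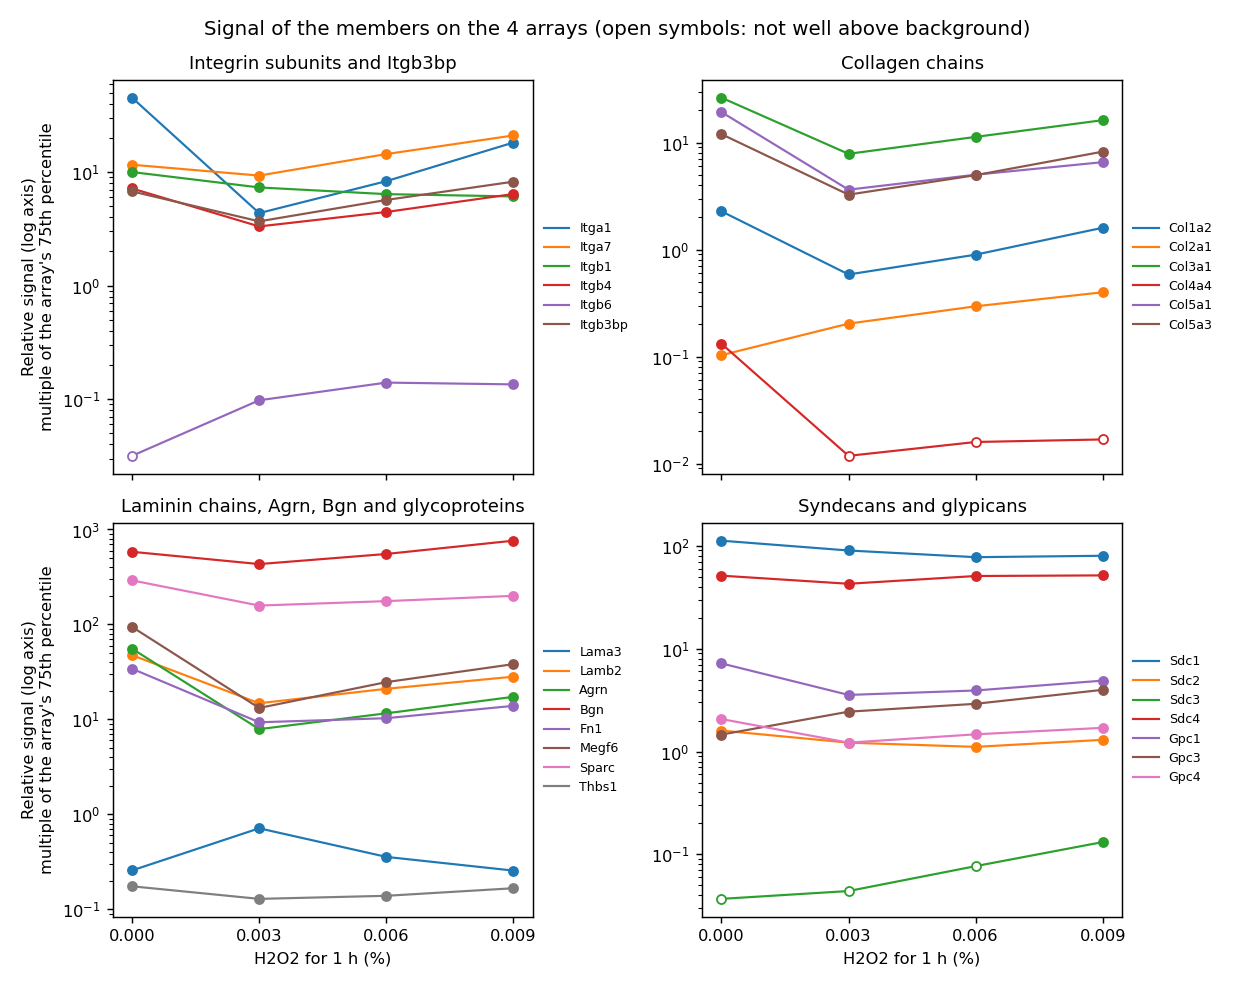
Each line follows 1 member over the control and the 3 H2O2 doses (x axis, percent H2O2 for 1 h) as relative signal, the multiple of the array's 75th percentile, on a log axis; filled symbols are well above background and open ones are not. Levels of different genes come from different probes and are not comparable. Itga1, Agrn, Megf6 and the collagens Col1a2, Col3a1, Col5a1 and Col5a3 are lowest at 0.003% and lie nearer to the control at 0.009%.

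Of the 6 collagen chains, 5 were at least 2-fold lower at 0.003%, 4 at 0.006% and 1 at 0.009%, beside 12.0, 8.18 and 5.21% of all named genes. The 5 include Col4a4 as a bound. It was well above background in the control alone, so its direction was set by the filter. Col5a1, a chain of the type V collagen that nucleates fibrils, had relative signals of 19.3, 3.63, 5.01 and 6.56. Every exposed culture lay below the control, by -2.41 ± 0.20, -1.95 ± 0.20 and -1.56 ± 0.20, and it was the collagen chain that was still at least 2-fold lower at 0.009%. Its second probe gave -2.46, -2.07 and -1.75. With spike-in scaling Col5a1 was at -2.59, -2.48 and -2.73. Col5a3, another type V chain, was at 12, 3.26, 4.96 and 8.23, with differences of -1.88, -1.28 and -0.55 (each ± 0.20).

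Col3a1 had relative signals of 26.3, 7.85, 11.3 and 16.2, and differences of -1.74, -1.22 and -0.70 (each ± 0.20). Col1a2 was at 2.28, 0.585, 0.896 and 1.6, with differences of -1.96 ± 0.21, -1.35 ± 0.21 and -0.51 ± 0.20. In both, as in Col5a3, the culture at 0.009% lay between that at 0.006% and the control. The dimmer probe of Col1a2 gave smaller differences, -1.29, -0.95 and -0.33, in the same order. At 0.009% the 3 chains Col1a2, Col3a1 and Col5a3 were past 2-fold lower with the authors' value table (-1.07, -1.26 and -1.11) and with spike-in scaling (-1.68, -1.87 and -1.71).

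Col4a4, a basement membrane chain, was well above background in the control alone, at a relative signal of 0.132, and was at least 2.23-fold, 1.65-fold and 1.58-fold lower in the exposed cultures. With normexp Col4a4 was at -0.54 at 0.003%. Col2a1, the main chain of cartilage collagen, lay above the control instead. Its relative signals of 0.103, 0.203, 0.295 and 0.399 are dim and were higher with each dose, with differences of 0.98 ± 0.31, 1.51 ± 0.30 and 1.95 ± 0.30. These were smaller with normexp, at 0.33, 0.65 and 0.93, and had no such order with spike-in scaling, at 0.79, 0.98 and 0.78. The second Col2a1 probe was not well above background on any array.

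**Figure D3:**
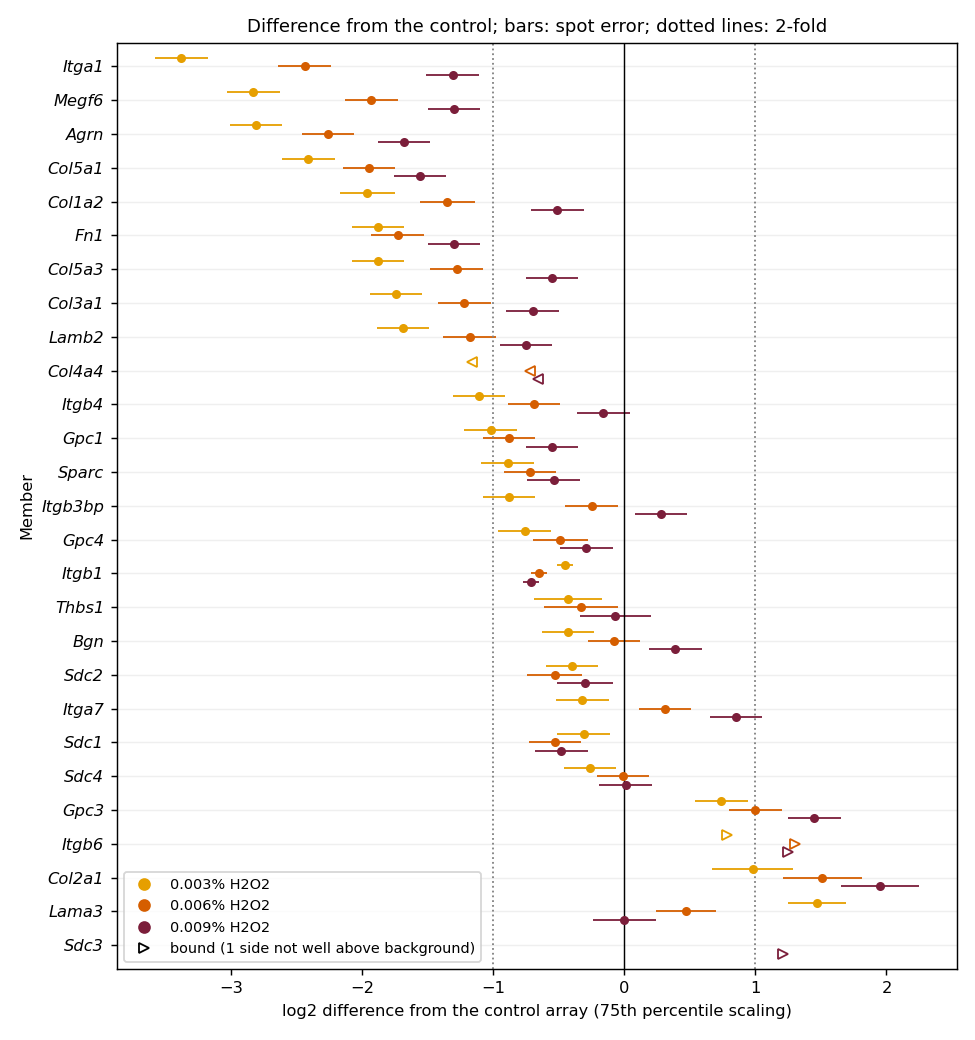
The log2 difference from the control array (x axis) is given for each member (y axis, ordered by the value at 0.003%) at 3 H2O2 doses; bars are the spot error, open triangles are bounds and dotted lines mark 2-fold. From Itga1 at -3.38 to Lama3 at 1.47 at the lowest dose, most members with a large negative difference lie nearer to 0 at 0.009%.

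Of the 2 laminin chains, 1 lay below and 1 above the control at the lowest dose. Lamb2, the beta 2 chain found in mature basement membranes, had relative signals of 47.5, 14.8, 21 and 28.2. Its differences were -1.69, -1.18 and -0.75 (each ± 0.20), and at 0.009% -1.31 with the authors' value table and -1.92 with spike-in scaling. Lama3, the alpha chain of the epithelial laminin that anchors hemidesmosomes, was at 0.257, 0.714, 0.357 and 0.256. The culture at 0.003% stood apart from the other 3, at 2.78-fold above the control (1.47 ± 0.22). At 0.006% the difference was 0.47 ± 0.23, and at 0.009% it was 0.00 ± 0.24. The signal is dim, and with normexp the difference at 0.003% was 0.77, while with spike-in scaling it was 1.29, -0.06 and -1.17 over the doses. Lama3 is the gene printed above with 3 AP-1 matches, and a link between these and its signal was not tested. Its integrin receptor chain Itgb4 was lower in that same culture, by the -1.11 given above.

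The secreted proteoglycan Agrn, which binds laminin and dystroglycan, had relative signals of 55.6, 7.9, 11.6 and 17.3. It was 7.04-fold, 4.78-fold and 3.21-fold lower (-2.81, -2.26 and -1.68, each ± 0.20), and no measured member was further below the control at 0.009%. With spike-in scaling Agrn was at -3.00, -2.79 and -2.85. Bgn, biglycan, a small leucine-rich proteoglycan that binds collagen, was at 582, 432, 552 and 762. Its differences were small, at -0.43, -0.08 and 0.39 (each ± 0.20). The last turned to -0.44 with quantile normalization, -0.17 with the authors' value table and -0.78 with spike-in scaling.

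Among matrix glycoproteins, Fn1, fibronectin, the ligand of several integrins, had relative signals of 34.2, 9.33, 10.3 and 13.9. The differences of -1.88, -1.73 and -1.30 (each ± 0.20) stood beside those of a second probe at -1.87, -1.71 and -1.47 (each ± 0.06). All 3 exposed cultures were more than 2-fold below the control on both probes. With spike-in scaling Fn1 was at -2.06, -2.27 and -2.47, furthest from the control at 0.009%. Megf6, a protein with many EGF-like domains, was at 94.2, 13.2, 24.7 and 38.2, with differences of -2.83, -1.93 and -1.30 (each ± 0.20). Sparc, a collagen-binding protein of the matrix, was at 291, 158, 176 and 200. It was lower by less, at -0.89, -0.72 and -0.54 (each ± 0.20), and lay past 2-fold at every dose with quantile normalization (-1.24, -1.12 and -1.11), the authors' value table (-1.03, -1.04 and -1.11) and spike-in scaling (-1.07, -1.26 and -1.71). Thbs1, thrombospondin 1, which activates latent TGF-beta, had dim signals of 0.175, 0.129, 0.139 and 0.167 and differences of -0.43 ± 0.26, -0.33 ± 0.28 and -0.07 ± 0.27.

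By relative signal, syndecans and glypicans mostly lay within 2-fold of the control, which at the higher doses depended on the scaling. Of 6 compared, 1 was at least 2-fold lower at 0.003% (12.0% of all named genes). None passed 2-fold at 0.006% (8.18% of all named genes lower and 15.1% higher), and 2 of 7 were higher at 0.009% (14.0%). Those 2 were Gpc3 and, as a bound that entered through this array alone, Sdc3. Counts this small cannot be set apart from these shares. Sdc1, the main epithelial syndecan, had relative signals of 112, 89.9, 77.4 and 79.9, and differences of -0.31, -0.53 and -0.48 (each ± 0.20). Sdc4, which sits in focal adhesions, was at 51.2, 42.7, 50.8 and 51.5, with differences of -0.26, -0.01 and 0.01 (each ± 0.20), the last -1.16 with spike-in scaling. Sdc2 lay between -0.30 and -0.53. With spike-in scaling Sdc1 and Sdc2 were past 2-fold lower at 0.006% (-1.06 and -1.07) and at 0.009% (-1.65 and -1.47). With the authors' value table Sdc1 was at -1.04 and Sdc2 at -0.86 at 0.009%. Sdc3, best known from neural cells, was well above background at 0.009% alone, with signals of 0.037, 0.0441, 0.077 and 0.132, and was there at least 2.32-fold higher (0.60 on the log2 scale with normexp and a bound of 0.05 with spike-in scaling).

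Glypicans are held to the membrane by a lipid anchor. Gpc1 had relative signals of 7.19, 3.55, 3.92 and 4.89 and differences of -1.02, -0.88 and -0.55 (each ± 0.20). Its second probe, well above background on 3 arrays, gave -1.05, -1.17 and 0.28, so the probes disagree at 0.009%. Gpc4 was at 2.07, 1.22, 1.47 and 1.7, with smaller differences of -0.76, -0.49 and -0.29. With spike-in scaling Gpc1 and Gpc4 were past 2-fold lower at 0.006% (-1.41 and -1.03) and at 0.009% (-1.72 and -1.46). With the authors' value table Gpc1 was at -1.12 and Gpc4 at -0.85 at 0.009%. Gpc3, known as a restraint on hedgehog and growth signals, lay above the control where these lay below it. Its signals of 1.46, 2.44, 2.91 and 3.98 were higher with each dose, with differences of 0.74, 1.00 and 1.45 (each ± 0.20). A second probe gave 0.74, 1.24 and 1.47. The order over the doses turned with spike-in scaling, at 0.56, 0.46 and 0.28, and all 3 values stayed above 0.

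Many members had their lowest signal at the lowest dose. Of the 24 well above background on all arrays, 14 followed the order control, 0.009%, 0.006%, 0.003% from high to low, as did 18.6% of the 4987 named genes measured on all arrays. They were Agrn, Col1a2, Col3a1, Col5a1, Col5a3, Fn1, Gpc1, Gpc4, Itga1, Itgb4, Lamb2, Megf6, Sparc and Thbs1. This order was looked for after the values had been seen, and depended on the scaling: 11 of 24 members followed it with the authors' value table (14.3% of genes) and 3 with spike-in scaling (1.54%), namely Itga1, Col1a2 and Col5a3.

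Set directly against each other, the culture at 0.009% was at least 2-fold above that at 0.003% in 9 of 26 members (8.95% of all named genes) and at least 2-fold below it in 1 (5.61%), which was Lama3 at -1.48 ± 0.23. The 9 were Itga1 at 2.06, Megf6 at 1.53, Col1a2 at 1.45, Col5a3 at 1.34, Itga7 at 1.17, Itgb3bp at 1.16, Agrn at 1.13, Col3a1 at 1.04 and, as a bound, Sdc3 at 1.16. The median over the members was 0.84, against 0.12 for all named genes. With spike-in scaling it was -0.15 against -0.90, and 1 member was at least 2-fold higher (0.479% of all named genes) and 3 lower (44.7%). Itga1 stayed above at 1.07 and Lama3 below at -2.46.

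**Figure D4:**
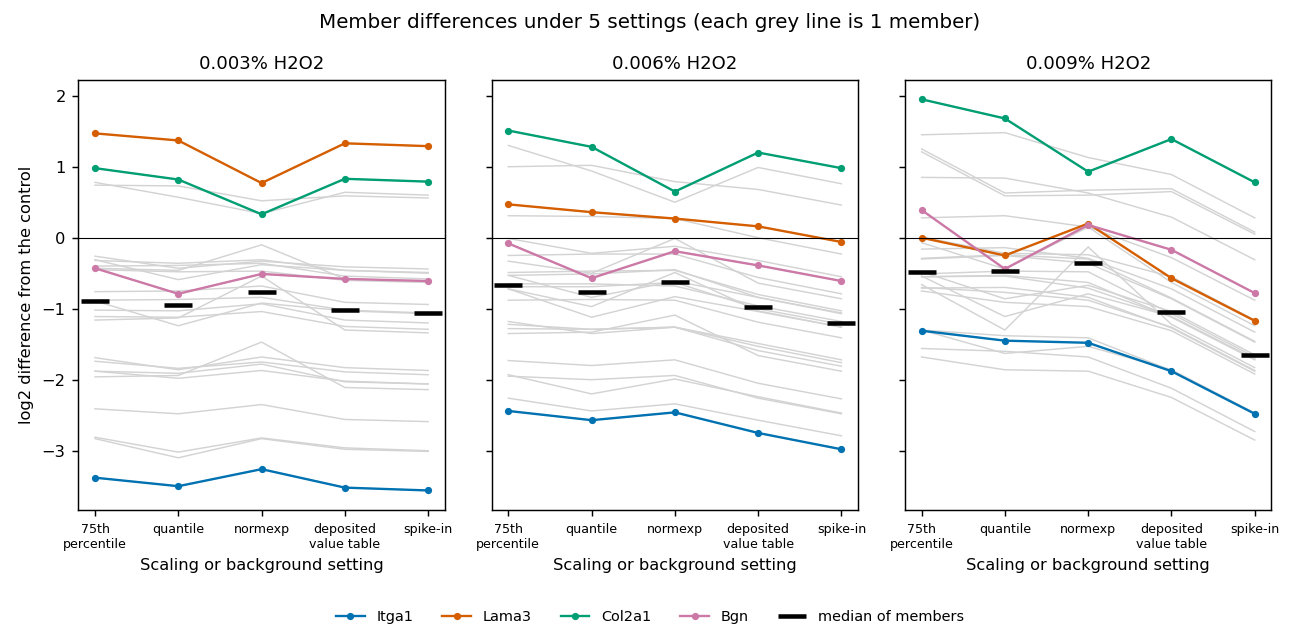
The log2 difference from the control (y axis) is shown at each H2O2 dose under 5 settings of scaling or background correction (x axis); each grey line is 1 member, coloured lines are Itga1, Lama3, Col2a1 and Bgn, and black bars are the members' medians. At 0.009% the median goes from -0.48 with the 75th percentile to -1.65 with spike-in scaling, while Itga1 lies below 0 under all 5 settings at every dose.

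A straight-line trend over the dose was fitted to all 23767 features well above background on at least 1 array with limma, with 2 residual degrees of freedom. It called 0 of 27 members and 0.0% of all features at an adjusted p under 0.05. At an unadjusted p under 0.05 there were 4 members (Col2a1, Gpc3, Itgb6 and Sdc3), sloping upward, and 13.7% of all features. Itgb6 and Sdc3 were not well above background in the control and entered through exposed arrays on which they were, with dim signals, so their upward slope was set by the filter. The direction also depended on the scaling: with spike-in scaling 10 members had such a p and 0 of them sloped upward, among the 4 with the authors' deposited values 2 did, and with normexp 3 of 5. Of all features, 34.4, 16.6 and 18.1% had such a p under these settings in turn. The member counts lie near these shares. The smallest adjusted p of a member was 0.259 (limma, Benjamini-Hochberg), for Col2a1 and Sdc3. Genes such as Itga1, lowest at the first dose, are poorly described by a straight line, and Itga1 had an adjusted p of 0.829 (limma).

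The genes whose 3 differences lay nearest to those of Itga1 were sought among 4986 other named genes well above background on all arrays, by the root mean square distance over the 3 doses. They were Tmem204 at a distance of 0.15 on the log2 scale (-3.15, -2.33 and -1.36), the phospholipase Plce1 at 0.37, the adhesion molecule Ncam1 at 0.38, Agrn at 0.40 (-2.81, -2.26 and -1.68) and the nuclear receptor Nr0b2 at 0.41. Of these 5, Agrn is a member.

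Enzymes that mature collagen, such as lysyl and prolyl hydroxylases and chaperones, had 6 of 14 at least 2-fold lower at 0.003% (12.0% of all named genes), 1 at 0.006% (8.18%) and 1 at 0.009% (5.21%), the last 2 counts near the share of all named genes. None was 2-fold higher at any dose, beside 16.2, 15.1 and 14.0% of all named genes. The medians were -0.77, -0.57 and -0.32, against 0.02, -0.03 and 0.06 for all named genes. P3h4, part of a lysyl hydroxylase complex, was at -1.67, -1.50 and -1.21. Plod1, which hydroxylates collagen lysines, was at -1.28, -0.95 and -0.65, and Plod2, of the same family, at -1.35, -0.95 and -0.54. P4ha3, a prolyl hydroxylase subunit, was at -1.18, -0.50 and 0.03.

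Enzymes that make or trim the heparan sulfate carried by agrin, syndecans and glypicans had medians of -1.43, -1.06 and -0.83. Of 9 compared, 5, 5 and 4 were at least 2-fold lower over the doses, beside the same 12.0, 8.18 and 5.21% of all named genes, and 1 was higher at 0.003% (16.2%). The xylosyltransferase Xylt2, which starts the chain, was at -1.63, -2.01 and -1.67, and the galactosyltransferase B4galt7, which extends its linker, at -1.55, -1.18 and -0.56. The sulfatases Sulf1 and Sulf2, which remove sulfate groups outside the cell, were at -1.59, -0.85 and -0.83 and at -1.95, -1.55 and -1.27.

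Other matrix proteins and their receptors had 9 of 23 at least 2-fold lower and 2 higher at 0.003%, 7 and 3 of 24 at 0.006%, and 2 and 3 of 24 at 0.009%, with medians of -0.88, -0.70 and -0.40. Among all named genes, 12.0, 8.18 and 5.21% were lower and 16.2, 15.1 and 14.0% higher over the doses. The matricellular genes of the CCN family lay on both sides of the control. Ccn2, connective tissue growth factor, was at -2.03, -1.62 and -1.18 (each ± 0.06), and Ccn5 at -2.07, -1.58 and -0.92, while Ccn1 was at 1.05, 1.83 and 2.54. Cd44, a receptor for hyaluronan, lay far above the control at 3.29, 2.33 and 1.51. Of the adaptors that join integrins to actin and to kinases, 2 of 19 were at least 2-fold above the control and 2 below it at 0.003%, 1 and 2 of 19 at 0.006%, and 0 and 2 of 20 at 0.009%, with medians of -0.60, -0.58 and -0.38. The counts above the control lay under the shares of all named genes just given. Those below it lay near these shares at 0.003% and 0.006%. At 0.009%, 2 of 20 lay over the 5.21% of all named genes, a count that rests on 2 genes. Ptk2b, a focal adhesion kinase homologue, was at -2.27, -1.85 and -1.14, Bcar1, a scaffold phosphorylated upon adhesion, at -0.78, -1.10 and -1.34, the adaptor Crkl at 2.33, 1.98 and 0.99, and the exchange factor Arhgef7 at 1.17 and 0.53, with a bound of -0.11 at 0.009%. With spike-in scaling the medians of these 4 lists at 0.009% were -1.49, -2.00, -1.67 and -1.63 in the order given.

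Markers of the labelled cell type were partly present. Of 11 kidney epithelial markers on the array, 7 were well above background on at least 1 array, and Epcam, Cldn1, Cldn7 and Pax8 on none. Of 11 proximal tubule markers 8 were, and Slc34a1, Slc22a6 and Slc22a8 on none (summed signal 2.96 to 5.12). Of 7 fibroblast markers 4 were, namely Pdgfrb, Vim, Twist1 and S100a4, and the defining markers Tcf21, Lum and Thy1 on none. From the control to 0.009%, the summed relative signal of the epithelial list was 61.3, 58.3, 46.2 and 40.2. The genes of the list with the largest differences had low signals and made up little of this sum. Krt18 had relative signals of 0.0646, 0.3, 0.436 and 0.552, and Krt19 of 0.369, 0.309, 0.741 and 1.15. Their differences were 2.22, 2.76 and 3.1 for Krt18 and -0.26, 1.01 and 1.64 for Krt19. Cldn3 was at 0.26, 0.4 and 0.79, while Cdh16 lay below the control at -1.08, -0.63 and -0.14. With spike-in scaling the epithelial list's median at 0.009% was -0.84. The list's median difference was 0.26, 0.40 and 0.32, and past 2-fold there was 1 of 7 above and 1 below the control at 0.003%, 2 and 0 of 7 at 0.006%, and 2 and 0 of 6 at 0.009%. The proximal tubule list had medians of 0.08, -0.06 and 1.14, with 0 of 8 above and 2 below past 2-fold at 0.003%, 1 and 2 of 7 at 0.006%, and 4 and 1 of 7 at 0.009%. Of all named genes, 16.2, 15.1 and 14.0% were higher and 12.0, 8.18 and 5.21% lower. The 4 at 0.009% include Fbp1 and Cubn, bounds of 1.46 and 1.14 because neither was well above background in the control. Aqp1 was at -2.11, -1.85 and -1.33, and Anpep at -1.50, -1.05 and -0.68. With spike-in scaling the list's median at 0.009% was -0.58. The fibroblast list had medians of -0.45, -0.29 and -0.18. Its summed signal of 286, 221, 244 and 322 was mostly that of S100a4, at 239, 190, 209 and 282. Of its 4 detected genes, Pdgfrb was at -2.17, -1.69 and -0.92, while Vim was at -0.57, -0.39 and -0.18, Twist1 at 0.41, 0.21 and -0.18, and S100a4 at -0.33, -0.19 and 0.24. Of 7 endothelial markers 3 were well above background on at least 1 array (summed signal 0.23 to 0.728), and of 9 macrophage markers 7 (3.06 to 5.14). The part of such cells in the members' values was not tested.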

How the data were processed

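Total RNA of 4 NRK-52E cultures was labelled with Cy3 and hybridised to Agilent arrays of design 014879, 1 array per dose. Per the file headers, the authors used Agilent Feature Extraction 10.7.3.1 for the scans, and the deposited spot signals are linear intensities after background subtraction and detrending within an array, with no scaling between arrays. Values of the authors' deposited table are on a linear ratio scale: for 100.0% of probes they equalled the mean processed signal over the array's median, within 1e-06 of the value, with column medians of 0.955 to 0.972. Scale and centring are therefore known, and the table served as an alternative.

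Outlier spots were left out, log2 signals of a probe's spots were averaged and each array's 75th percentile, taken on the log2 scale without control spots, was subtracted. A probe counted as well above background where at least 50% of its remaining spots were. Of 41007 probes used, 10834 (26.4%) were named through the RefSeq accession in a table of rat genes (GRCr8). The array was annotated on rn4, so gene positions are not given. A gene took its brightest probe. For a difference, an array not well above background entered at its own value or at the array's lowest signal well above background, whichever was higher. The trend, normexp and the alternative with no filter used the values without this floor. The scanner software's spot error was propagated over both arrays. The trend was fitted with limma 3.58.1 in R 4.3.3 on the dose as a number and the step was checked on simulated data. Promoter sequences were matched by symbol for 18 of 27 members.

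The members and gene lists were chosen with earlier results of these data known. Named with values are members at least 2-fold from the control at any dose and a fixed set of main members; the few remaining ones were added so that each member is described. Of each list, genes were taken from its 4 largest differences, except that no endothelial or macrophage marker is named with a value. Alternatives were quantile normalization, spike-in scaling on 7 control probes, the deposited value table, normexp (offset 50, median spot and background signals, because no mean spot signal was used), only features well above background on both arrays, no filter, the mean of a gene's probes, and for the trend leaving out each array. A gene of the cell type marker lists was left out and is not reported here.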

Additional observations from a re-analysis of the deposited data

How the results depend on the processing

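No paired analysis was possible because each dose has 1 array and the labels carry no replicate numbers. Of 88 recomputed counts and medians, those of the trend left out, 60 stayed within 1.5 times (counts) or within the members' median spot error of 0.2 (medians), and 28 did not. The cause was not tested beyond the shift that each scaling makes by its construction. The counts of members at least 2-fold lower at 0.003% stayed between 10 and 14 under all 7 alternatives, beside 6.44 to 17.2% of all named genes. With spike-in scaling, 17 and 20 members were at least 2-fold lower at 0.006% and 0.009% and 0 were higher at either, with medians of -1.20 and -1.65. Among all named genes 27.9 and 58.2% were then lower and 6.9 and 2.69% higher. Between 0.009% and 0.003%, 1 was higher (0.479% of all named genes) and 3 lower (44.7%), the median turned to -0.15, and 3 members followed the order of the 4 arrays. With the deposited value table, 14 were lower at 0.009% (21.8%), 1 was higher at 0.006% (9.42%) and 1 at 0.009% (5.21%), and the medians were -0.98 and -1.04. Between 0.009% and 0.003%, 3 were then higher (2.12%) with a median of 0.42. With normexp, 0, 0 and 1 were higher at the 3 doses (8.48, 7.22 and 4.7% of all named genes). Between 0.009% and 0.003%, 3 were then higher (1.3%) and 0 lower (2.24%) with a median of 0.60. Quantile normalization left 2 higher at 0.009% (8.64% of all named genes). Where both arrays had to be well above background, 1 was higher at 0.006% (12.3%) and 2 at 0.009% (9.49%). With no filter, 2 were higher at 0.003% (14.4%) and 2 lower between 0.009% and 0.003% (4.85%). The 3 members Col4a4, Itgb6 and Sdc3 entered only through the arrays on which they were well above background, so a difference was set by the filter. The trend (limma) called 0 members under every alternative and without any 1 array (lowest and highest 0), with 1 to 16 members at an unadjusted p under 0.05. The 1 was found without the array at 0.006% (5.77% of all features) and the 16 without the control array (41.9%). Spike-in scaling gave 10 such members (34.4% of all features), 0 of them upward. Without the array at 0.003% the trend called 440 features, none of them a member, and with each other array left out 0. With 1 array per dose, the number of arrays limits every value, and the dim signals of Col2a1, Lama3, Itgb6, Sdc3, Thbs1 and Col4a4 are the least firm.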

Other observations

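The 4 genes on the array that met the name rule without a signal well above background on any array were Col23a1, Gpc2, Dcn and Itgb3. Dcn, decorin, a small proteoglycan typical of fibroblasts, had relative signals of 0.0276, 0.0147, 0.0188 and 0.0195 from the control to 0.009%. Itgb3, the partner of the alpha V chain in vitronectin binding, was at 0.0311, 0.0454, 0.0207 and 0.0221. Col23a1, a membrane-spanning collagen chain, was at 0.0425, 0.0327, 0.0542 and 0.0813, and Gpc2, another glypican, at 0.0408, 0.0347, 0.0654 and 0.0721. Such values are not well above background and have no order.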
